A study of Homo sapiens with 6 samples.

Results

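The proteasome is described here through its PSM genes, which encode the subunits, activators, inhibitor and assembly chaperones of the complex. On the array a proteasome gene was any gene with a probe set whose only symbol is PSMA, PSMB, PSMC, PSMD, PSME, PSMF or PSMG followed by a number. This rule found 39 of the 11963 genes named by a single-symbol probe set, and 62 of the 22215 probe sets other than platform controls. A gene with several probe sets was represented by the one with the highest mean over all arrays. Another 5 probe sets name a proteasome gene together with a further gene and were not used, so PSMA6 and PSME2 were not analysed here, and neither were PSMC5, PSMD7, PSMD13, PSMA8, PSMB11, PSMG3 and PSMG4.

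The arrays came from SH-SY5Y, a human neuroblastoma line of neuronal character. In 3 of them the cells had been kept for 1 h with unconjugated bilirubin at a free (not albumin-bound) concentration, Bf, of 140 nM, and in the other 3 for 1 h with the solvent alone, DMSO 0.6%. The bilirubin was dissolved in DMSO, so both groups received this solvent, and both were grown with 15% foetal bovine serum. Each group holds 3 biological replicates, numbered 1 to 3 in both, from separate flasks of 1 cell line, and cells without solvent were not analysed here. The authors' values are variance-stabilized (VSN) on a log2 scale, the base being taken from the method, so a difference of 1 stands for 2-fold where the signal is high and for a larger fold where it is near background. As a check of the label, 15 of 17 measured noradrenergic neuroblastoma markers, 0 of 9 leucocyte markers and 8 of 10 mesenchymal markers lay above the median level of all probe sets.

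The proteasome degrades proteins that carry ubiquitin chains. Its core particle is a barrel in which outer rings of alpha subunits (PSMA) gate the entry and inner rings of beta subunits (PSMB) cut the chain, with caspase-like, trypsin-like and chymotrypsin-like sites on PSMB6, PSMB7 and PSMB5. In cells exposed to interferon these catalytic subunits are replaced by PSMB9, PSMB10 and PSMB8, which gives the immunoproteasome. A regulatory particle of ATPases (PSMC) and of lid and base subunits (PSMD) binds, unfolds and feeds in the substrate, and the activators (PSME) cap the core in its place. When proteasome activity is blocked, the transcription factor NFE2L1 raises many of these genes together through antioxidant response elements in their promoters.

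Because this co-regulation acts on promoters, sites of that element and of the interferon-stimulated response element are shown for 5 of the genes described below. The letters searched were TGACNNNGC for the antioxidant response element and a pair of GAAA runs with any 2 bases between them for the interferon-stimulated one. Both strands were searched in the 250 bases before each annotated start of the RefSeq genes of GRCh38.p14. A gene with several starts was counted if any of them held the motif, and positions below refer to that start. All 39 symbols matched the annotation of this build, on 17 chromosomes, and 34 had a promoter to search. Of these, 11 (32.4%) held the first motif, against 3609 of 27305 genes (13.2%), and 3 (8.82%) held the second, against 1014 genes (3.71%). The second motif lay in PSMA4 and PSMB4 of the constitutive core and in PSMB10. The interferon-inducible PSMB9 and PSME1 held only the first. The sites run 5′ to 3′ on the strand of the gene, with the motif in capitals and flanking bases in lower case.
PSMA4 antioxidant response element, chr15:78540650-78540678, plus strand, 126 bases before the start: gtgggcacgaTGACTCTGCaccgcctcct
PSMB3 antioxidant response element, chr17:38752627-38752655, plus strand, 104 bases before the start: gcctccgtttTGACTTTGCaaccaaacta
PSMD3 antioxidant response element, chr17:39980760-39980788, plus strand, 37 bases before the start: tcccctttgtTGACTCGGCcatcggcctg
PSMG1 antioxidant response element, chr21:39183616-39183644, minus strand, 183 bases before the start: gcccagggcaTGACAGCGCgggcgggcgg
PSMB10 interferon-stimulated response element, chr16:67936852-67936881, minus strand, 21 bases before the start: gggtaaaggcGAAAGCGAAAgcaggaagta
A match of letters describes the sequence and does not show binding.

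After 1 h no proteasome gene was called in either direction. At a Benjamini-Hochberg adjusted p under 0.10 from limma, 0 of the 39 genes were higher and 0 were lower in Bf 140 nM than in DMSO 0.6%, as for all 22215 probe sets (0% called). At an unadjusted p under 0.05 there were also 0 proteasome genes, against 7 of all genes (0.0585%). This fit has no replicate block, so differences between replicate numbers enter its error and make it conservative. The Bf 140 nM minus DMSO 0.6% intervals below are from this fit unless a block is named. The differences ran from -0.10 for PSMD2 to 0.10 for PSMB8, both on the log2 scale, with a median of 0.01 over the proteasome genes and 0.01 over all genes. Of the 39 differences 22 were positive (56.4%), against 58.1% of all genes. In 0 of the 39 genes did the 3 Bf 140 nM values lie wholly above or below the 3 DMSO 0.6% values, against 285 of all genes (2.38%). In whole cultures, fewer transcripts per cell and fewer cells that carry them cannot be told apart.

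The intervals give the range of changes that 3 arrays per group leave possible. For 28 of the 39 genes the 95% confidence interval of the difference lay within 0.58 log2 either way, which is 1.5-fold at bright probe sets, and for 37 within 1 log2. The intervals that reached past 1 log2 belonged to PSMA7, an alpha subunit, from -1.01 to 0.95, and to PSME3, an activator subunit, from -0.89 to 1.00. Both genes differed mainly between replicate numbers, as described below. With the replicate number as a block in the model the 39 intervals all lay between -0.30 and 0.31 log2, which is within 1.25-fold at bright probe sets but can stand for a larger fold in PSMB8 and PSMB9, whose signals lie near background. Again 0 proteasome genes were called by their brightest probe set or had an unadjusted p under 0.05, against 99 of all genes (0.828%) at that unadjusted level. The signs of such small differences were not stable. Without DMSO 0.6% replicate 3 they turned in 22 of the 39 genes, still with 0 called. That fit leaves the groups with unequal replicate numbers. Without both replicate 3 arrays, which keeps the numbers equal, the signs turned in 14. The median of each class also took both signs when arrays were left out 1 at a time.

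**Figure D1:**
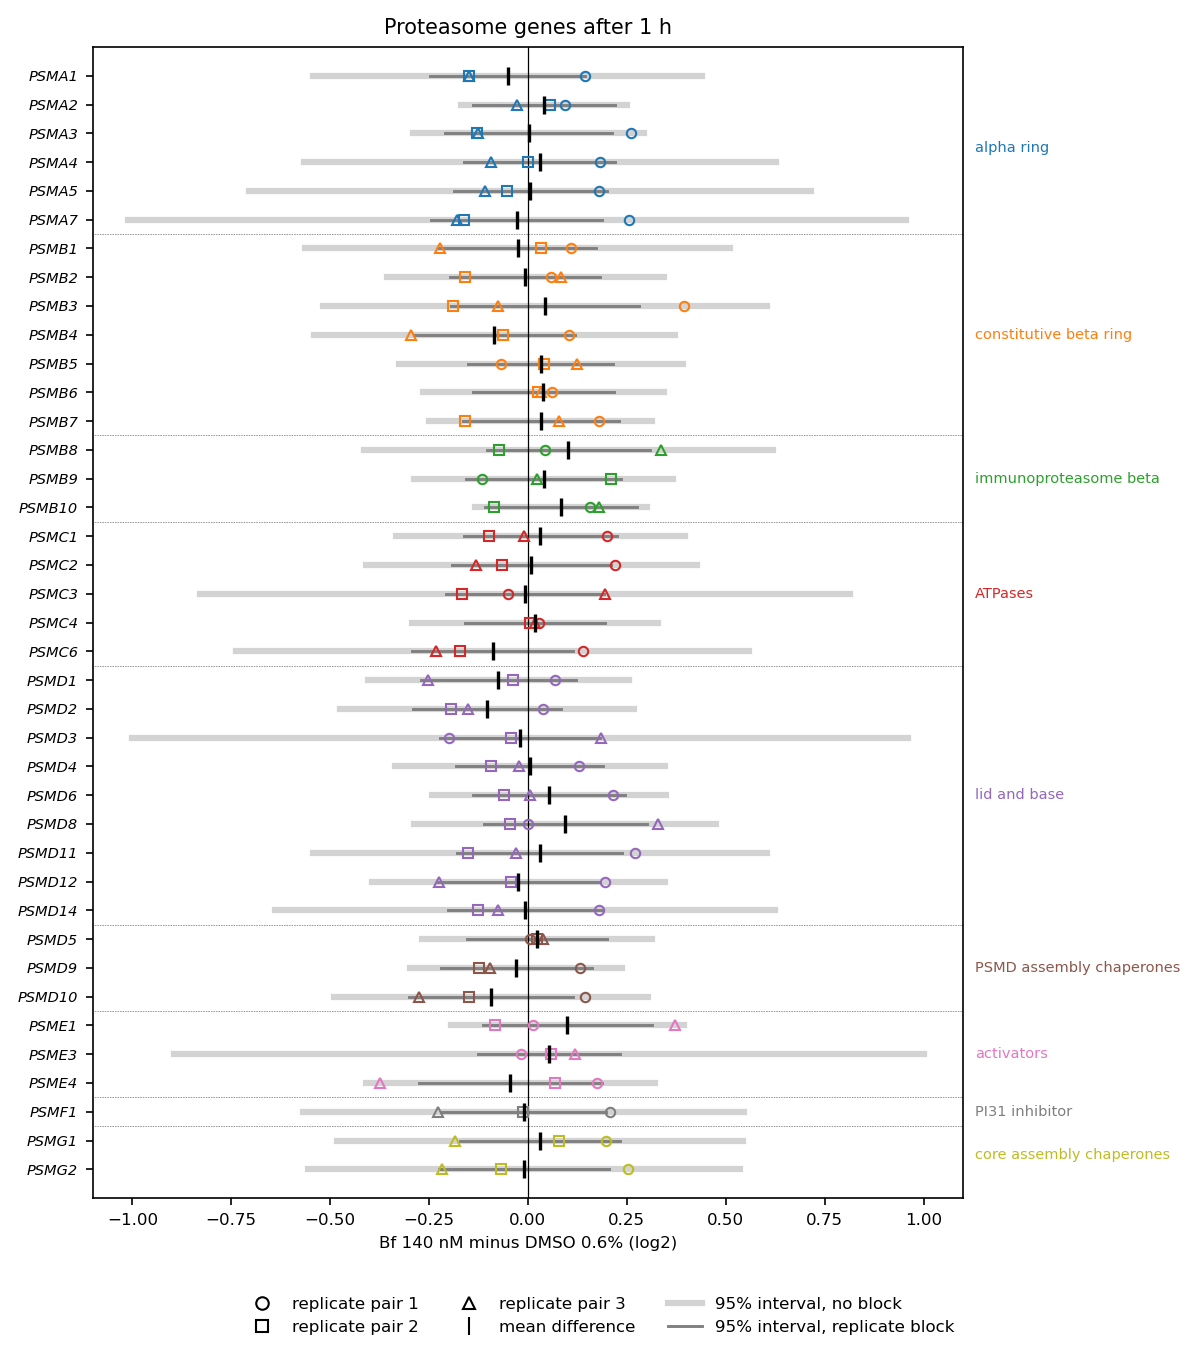
Bf 140 nM minus DMSO 0.6% (log2) on the x axis for each of the 39 proteasome genes on the y axis, grouped by role. Symbols are the 3 replicate pairs, the black tick is the mean difference, and the pale and dark bars are 95% intervals without and with the replicate block. Every mean lies between -0.10 and 0.10, and every interval crosses 0.

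The catalytic subunits of the constitutive core were at nearly the same level in both groups. PSMB5, which carries the chymotrypsin-like site that proteasome drugs bind, had 11.87, 11.67 and 11.59 in Bf 140 nM, against 11.94, 11.63 and 11.47 in DMSO 0.6% (replicates 1, 2 and 3). PSMB6, the caspase-like subunit, had 11.87, 11.68 and 11.54 in Bf 140 nM, against 11.81, 11.66 and 11.51 in DMSO 0.6%. In both genes replicate 1 was the highest and replicate 3 the lowest array of its group, and the groups overlapped. PSMB7, the trypsin-like subunit, had 12.81, 12.43 and 12.63 in Bf 140 nM, against 12.63, 12.59 and 12.55 in DMSO 0.6%. The differences were 0.03 for PSMB5 (95% interval -0.33 to 0.39), 0.04 for PSMB6 (-0.26 to 0.34) and 0.03 for PSMB7 (-0.25 to 0.31).

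Their interferon-inducible counterparts had a class median of 0.08, with all 3 differences positive but none called. These signs were not stable when 1 array was left out, a fit that also leaves the groups with unequal replicate numbers. The median was -0.01 without Bf 140 nM replicate 2 and -0.03 without DMSO 0.6% replicate 3, with PSMB8 and PSMB9 negative each time. It was 0.11 without Bf 140 nM replicate 3 or without DMSO 0.6% replicate 2. PSMB8 had 6.96, 7.23 and 6.86 in Bf 140 nM, against 6.91, 7.31 and 6.53 in DMSO 0.6%. PSMB9 had 6.49, 6.85 and 6.45 in Bf 140 nM, against 6.61, 6.64 and 6.43 in DMSO 0.6%. Both probe sets lay below the array medians of 7.73 to 7.97, where VSN values compress differences, and detection calls were not used here. PSMB10, with the interferon-stimulated element shown above, had 8.58, 8.42 and 8.60 in Bf 140 nM, against 8.42, 8.51 and 8.42 in DMSO 0.6%. Its replicate 2 value was below that of DMSO 0.6% while the other 2 pairs ran the other way. The differences were 0.10 for PSMB8 (95% interval -0.41 to 0.62), 0.04 for PSMB9 (-0.29 to 0.37) and 0.08 for PSMB10 (-0.13 to 0.30), and the unadjusted p of PSMB10, 0.385, was the smallest of all proteasome genes (adjusted p = 1.00, limma).

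**Figure D2:**
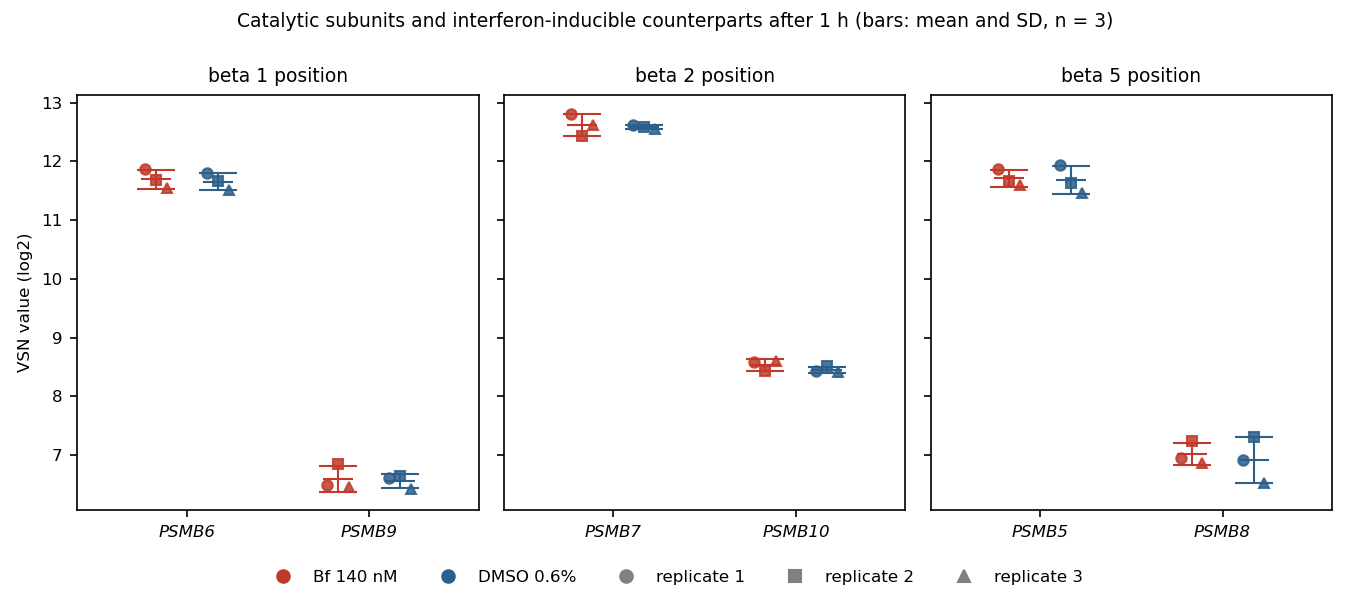
VSN values (log2, y axis) of the catalytic beta subunits and their interferon-inducible counterparts in each Bf 140 nM array (red) and each DMSO 0.6% array (blue), with bars for the mean and SD of 3 arrays; symbols give the replicate number. The groups overlap in all 6 genes, and heights of different probe sets are not to be compared as transcript levels.

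The remaining core genes varied as little between treatments. Over the 6 alpha subunits the median difference was 0.00, and the extremes were PSMA1 at -0.05 (95% interval -0.54 to 0.44) and PSMA2 at 0.04 (-0.17 to 0.25). PSMA4, an alpha subunit with the antioxidant response element shown above, had 12.28, 12.23 and 12.77 in Bf 140 nM, against 12.09, 12.23 and 12.87 in DMSO 0.6%, a difference of 0.03 (-0.57 to 0.63). In this gene the replicate 3 array was the highest of each group. Over the 7 constitutive beta subunits the median was 0.03. PSMB4, a structural beta subunit, had 13.25, 12.95 and 13.33 in Bf 140 nM, against 13.14, 13.01 and 13.62 in DMSO 0.6%, the lowest core difference at -0.08 (-0.54 to 0.37). PSMB3, also structural, differed by 0.04 (-0.52 to 0.60) and PSMB1 by -0.03 (-0.56 to 0.51). In PSMB3 replicate 1 had 12.51 in Bf 140 nM and 12.12 in DMSO 0.6%, while replicate 2 had 11.62 in Bf 140 nM and 11.81 in DMSO 0.6%, so the sign turned between pairs.

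Among the 5 ATPases, which unfold the substrate at the base of the regulatory particle, the median difference was 0.01. PSMC6 had the lowest value of the class, with 11.31, 11.04 and 11.72 in Bf 140 nM, against 11.17, 11.22 and 11.96 in DMSO 0.6%, a difference of -0.09 (95% interval -0.74 to 0.56). PSMC4 had the least scatter between the pairs, with 11.64, 11.35 and 11.37 in Bf 140 nM, against 11.62, 11.34 and 11.35 in DMSO 0.6%. Its pair differences were all positive, between 0.00 and 0.03. PSMC1 differed by 0.03 (-0.33 to 0.40), PSMC2 by 0.01 (-0.41 to 0.43) and PSMC3 by -0.01 (-0.83 to 0.81).

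The lid and base genes of the PSMD family, some of which encode subunits that bind ubiquitin chains or remove them, had a median difference of -0.01 over 9 genes. PSMD2, the large base scaffold, had 11.58, 11.09 and 11.39 in Bf 140 nM, against 11.55, 11.28 and 11.54 in DMSO 0.6%. This was the lowest difference of all 39 genes, at -0.10 (95% interval -0.47 to 0.27), and it was negative in pairs 2 and 3 and positive in pair 1. PSMD8, a lid subunit, had 12.24, 12.00 and 12.03 in Bf 140 nM, against 12.24, 12.05 and 11.70 in DMSO 0.6%, a difference of 0.09 (-0.29 to 0.48). Its pair differences were 0.00, -0.05 and 0.33. PSMD1, the other large base scaffold, differed by -0.07 (-0.40 to 0.25). PSMD14, the deubiquitinating enzyme of the lid, had 12.21, 11.96 and 12.68 in Bf 140 nM, against 12.03, 12.09 and 12.75 in DMSO 0.6%, a difference of -0.01 (-0.64 to 0.62). The 3 PSMD genes that assist assembly of the regulatory particle differed by -0.09 for PSMD10 (-0.49 to 0.30), -0.03 for PSMD9 (-0.30 to 0.24) and 0.02 for PSMD5 (-0.27 to 0.31).

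Of the activators, PSME1, an interferon-inducible subunit of the 11S cap, had 11.13, 10.91 and 11.19 in Bf 140 nM, against 11.12, 11.00 and 10.82 in DMSO 0.6%. Its difference of 0.10 (95% interval -0.20 to 0.40) lay almost wholly in pair 3, where it was 0.37, against 0.01 and -0.08 in pairs 1 and 2. PSME4, a single-chain activator of the nucleus, went the other way in the same pair, at -0.37, and differed by -0.04 (-0.41 to 0.32) over the 3 pairs. PSME3, which forms the nuclear cap, differed by 0.05. PSMF1, the inhibitor PI31, differed by -0.01 (-0.57 to 0.55). PSMG1 and PSMG2, which together chaperone the assembly of the alpha ring, differed by 0.03 (-0.48 to 0.54) and -0.01 (-0.56 to 0.54).

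The pairs of equal replicate number did not run alike. Of the 39 proteasome genes 34 (87.2%) had a positive difference in pair 1, but only 11 (28.2%) did so in pair 2 and 15 (38.5%) in pair 3. For all genes the shares were 58.9%, 47.3% and 54.5%, and for the 6853 genes at or above the median level, where all proteasome genes except PSMB8 and PSMB9 lie, they were 71.1%, 40.6% and 43.0%. Pair 1 had a median proteasome difference of 0.14, pair 2 of -0.06 and pair 3 of -0.08. Among the classes of more than 3 genes the alpha ring turned most, with 6 of 6 positive in pair 1, at a median of 0.18, and 0 of 6 in pair 3, at a median of -0.12. The lid and base genes were positive in 8 of 9 in pair 1 and in 0 of 9 in pair 2. Each pair is a single array set against another, so a shift of many genes within a pair has no replicate of its own and was not tested. Positive in all 3 pairs were 3 proteasome genes, PSMB6, PSMC4 and PSMD5, against 11.1% of all genes, and negative in all 3 pairs were 0, against 5.17%.

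**Figure D3:**
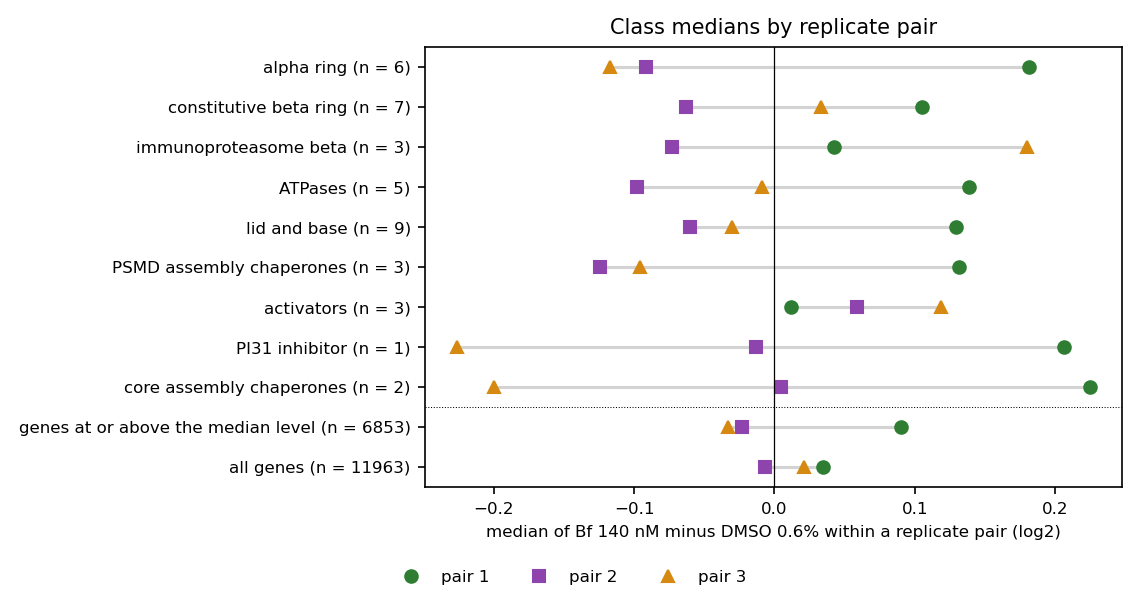
Median of Bf 140 nM minus DMSO 0.6% (log2, x axis) within replicate pair 1 (circles), pair 2 (squares) and pair 3 (triangles) for each class of proteasome genes, with genes at or above the median level and all genes as background. Pair 1 is positive in every class, from 0.01 to 0.23, and pair 2 is negative in all classes of more than 3 genes.

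The main differences between the 6 arrays ran with the replicate number and not with the treatment. More than 50% of a gene's scatter, as a sum of squares over the 6 values, lay between replicate numbers in 35 of the 39 proteasome genes (89.7%), against 74.8% of all genes. The median share was 86.6% between replicates, 0.89% between treatments and 11.4% in the rest for the proteasome genes, against 76.1%, 2.56% and 15.8% for all genes. PSMC4 had 99.5% and PSME3 99.4% of its scatter between replicates, while PSMB10 had 5.7%. With 3 replicate numbers but 2 treatments, scatter without any pattern would also give replicates the larger share, and the shares were not adjusted for this. Both replicate 3 arrays stood apart, so the contrast tested was replicate 3 minus the mean of replicates 1 and 2. The treatment was in the model, with 1 array of each treatment in each replicate. This contrast was chosen after these values were seen. Its p-values and intervals rest on 1 replicate number set apart and do not measure how replicate cultures vary.

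At an adjusted p under 0.10 from limma, 17 of the 39 proteasome genes were higher in replicate 3 and 8 were lower. Over all genes 20% were higher and 25.6% lower, and among genes at or above the median level 31.6% were higher and 28.0% lower. The split depended on the scaling, with 13 higher and 13 lower after quantile normalization and 23 higher and 4 lower with equal array medians. The median over the proteasome genes was 0.16, against -0.05 over all genes. It was 0.00 against 0.04 after quantile normalization and 0.36 against 0.15 with equal array medians. The lead of the proteasome genes over all genes thus depended on the scaling, and no direction as a whole was settled. No called gene changed sign under either scaling, but other probe sets of the same gene could run the other way, as given below. Leaving out 1 array at a time gave 15 to 29 called genes, and the lowest count, 10 higher and 5 lower, was without DMSO 0.6% replicate 3.

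The genes highest in replicate 3 came from several parts of the complex. PSMA7, an alpha subunit, had 12.69, 12.22 and 13.36 in Bf 140 nM, against 12.43, 12.38 and 13.54 in DMSO 0.6%, and its replicate contrast was 1.02 (95% interval 0.79 to 1.24). PSMA5, another alpha subunit, had 11.27, 11.03 and 11.80 in Bf 140 nM, against 11.09, 11.09 and 11.91 in DMSO 0.6%, with a contrast of 0.74 (0.53 to 0.94). In both genes each replicate 3 array lay above all 4 other arrays. The ATPase PSMC6 followed at 0.66 (0.44 to 0.87) and the deubiquitinase PSMD14 at 0.65 (0.44 to 0.85), with the values given above. Of the alpha subunits 4 of 6 were higher and 0 lower, against 31.6% higher and 28.0% lower among genes at or above the median level. PSMA2 and PSMA3, which were not called, turned negative after quantile normalization. PSMG1, PSMG2 and PSMF1 were higher too, at 0.50, 0.53 and 0.54, but the other probe set of PSMF1 was lower at -0.53.

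The lowest in replicate 3 were subunits of the regulatory particle and an activator. PSMD3, a lid subunit, had 10.28, 10.33 and 9.42 in Bf 140 nM, against 10.49, 10.37 and 9.23 in DMSO 0.6%, a contrast of -1.04 (95% interval -1.26 to -0.83). PSME3 had 11.39, 11.47 and 10.46 in Bf 140 nM, against 11.41, 11.41 and 10.34 in DMSO 0.6%, a contrast of -1.02 (-1.21 to -0.83). PSMC3, an ATPase, had 11.65, 11.51 and 10.87 in Bf 140 nM, against 11.70, 11.67 and 10.67 in DMSO 0.6%, a contrast of -0.86 (-1.08 to -0.65). In these 3 genes both replicate 3 arrays lay below all 4 others by more than the treatments differed in any pair. PSMD11, a lid subunit, came next at -0.45 (-0.68 to -0.23), but its other probe set was not called, at 0.09 (-0.10 to 0.29). Of the 11 genes with an antioxidant response element, 5 were higher in replicate 3, 1 was lower and 5 were not called. Among all 39 proteasome genes 17 were higher and 8 lower, and the share among all genes with this element was not computed. Among those shown above PSMA4 was higher at 0.61 and PSMG1 at 0.50, PSMD3 was the lower one, and PSMB3 was not called at -0.02. The immunoproteasome gene PSMB8 was lower at -0.41, while PSMB9 and PSMB10 were not called.

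A measure of 3′ bias in the labelled RNA moved with the same arrays. The actin control probe sets were brighter at the 3′ end than at the 5′ end by 0.12, 0.50 and 1.49 log2 in Bf 140 nM and by 0.10, 0.37 and 1.90 log2 in DMSO 0.6% (replicates 1, 2 and 3). For GAPDH the same measure was 0.21, 0.25 and 1.03 in Bf 140 nM and 0.20, 0.21 and 1.15 in DMSO 0.6%. With the actin measure in place of the replicate number in the model 21 proteasome genes were called, 13 higher and 8 lower, and all 21 were among the 25. The replicate number, this measure and anything else that set replicate 3 apart cannot be told apart with 3 replicate numbers.

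**Figure D4:**
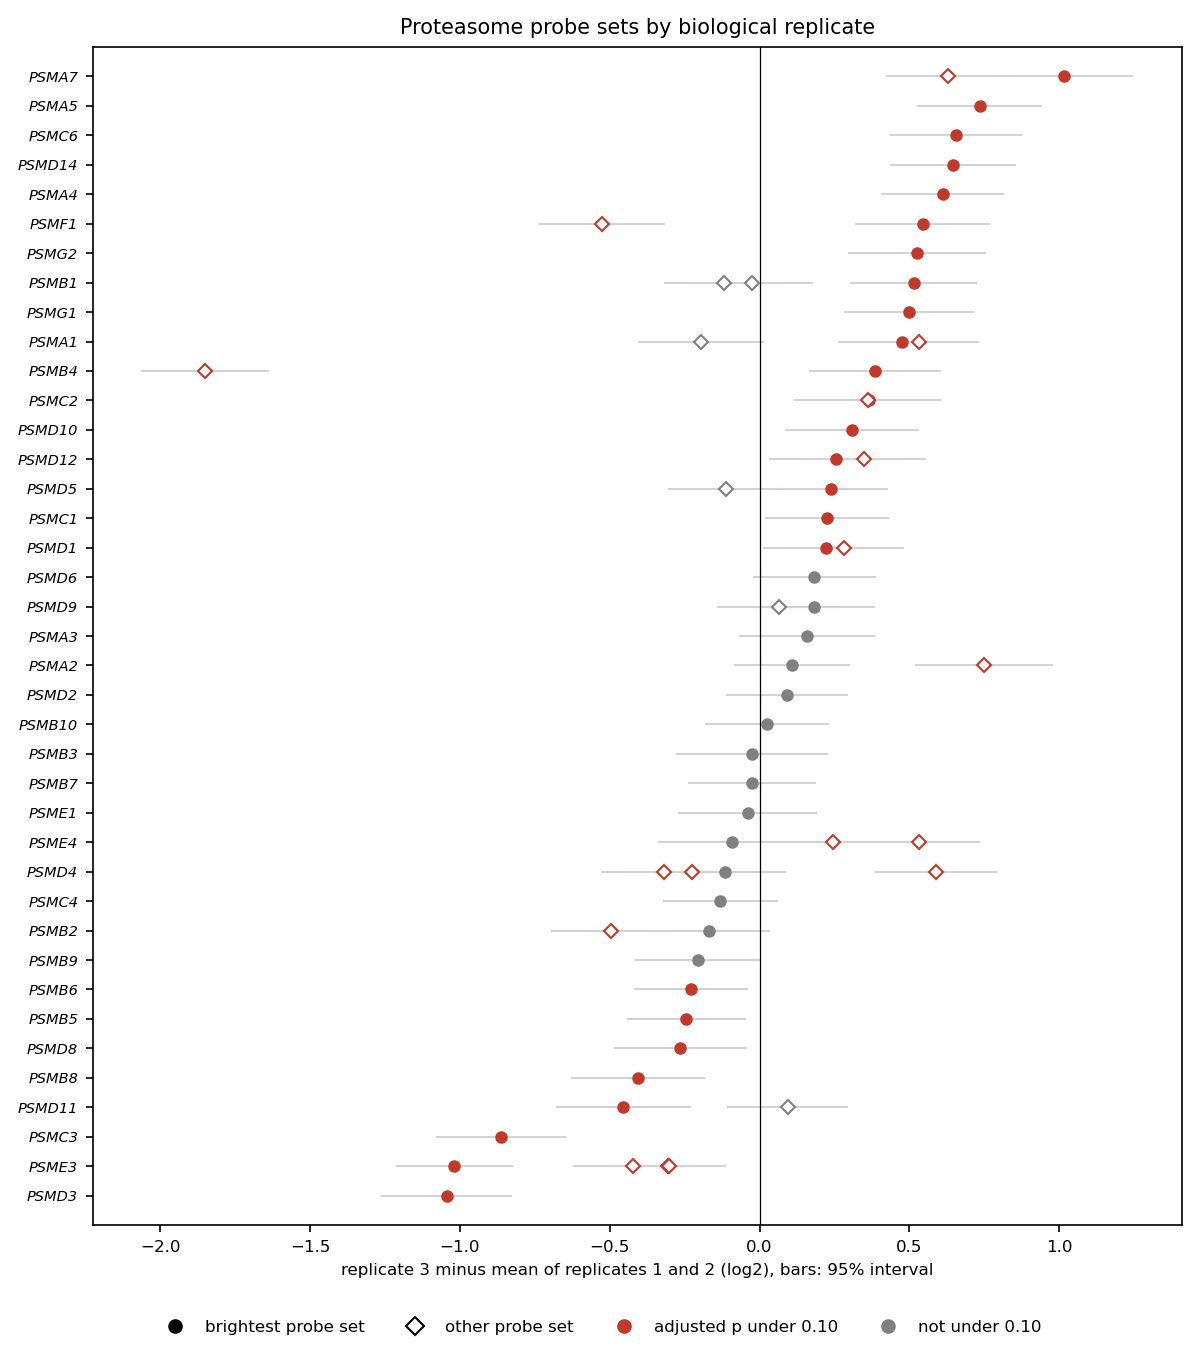
Replicate 3 minus the mean of replicates 1 and 2 (log2, x axis), with 95% intervals, for the brightest probe set of each of the 39 proteasome genes (filled) and for their other single-symbol probe sets (open diamonds). Red marks an adjusted p under 0.10; the genes run from PSMA7 at 1.02 to PSMD3 at -1.04, and the second probe set of PSMB4 lies at -1.85.

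Probe sets of the same gene did not always run the same way between replicates. Of the 16 proteasome genes with more than 1 probe set, the replicate contrast had both signs in 8 (50%), against 53.3% of such genes on the array, and was called in both directions in PSMB4, PSMD4 and PSMF1 (18.8%, against 18.1%). PSMB4 was the widest case. Its brightest probe set was higher in replicate 3 at 0.39, while its other one had 12.95, 12.54 and 10.84 in Bf 140 nM, against 12.95, 12.87 and 11.12 in DMSO 0.6%, a contrast of -1.85 (95% interval -2.06 to -1.64). This second probe set differed by -0.21 between Bf 140 nM and DMSO 0.6%, and with the replicate block its interval was -0.41 to -0.01, with an adjusted p = 1.00 from limma. It was the only 1 of the 62 proteasome probe sets with an unadjusted p under 0.05 in the blocked model, against 1.22% of all probe sets, and the only 1 negative in all 3 pairs, against 5.83%. PSMF1 had contrasts of 0.54 and -0.53 in its 2 probe sets. All 4 probe sets of PSME3 were lower, but only the brightest reached -1.02, and the others were at -0.42, -0.31 and -0.30. Both probe sets of PSMA7 were higher, at 1.02 and 0.63. The brightest probe sets of PSMA1, PSMA7, PSMD4 and PSME3 are of the platform's x type, whose probes can match other transcripts. For Bf 140 nM minus DMSO 0.6% the signs differed within 10 of the 16 genes (62.5%, against 57.9%), and the span within these 16 genes was -0.21 to 0.15.

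Genes that work with the proteasome showed no called change either, in 3 lists named for their roles. Of 21 measured partners (shuttle factors, deubiquitinases, assembly and transcription factors) 0 were called, with a median of 0.01, and 0 had an unadjusted p under 0.05. AKIRIN2, which brings proteasomes into the nucleus, had 7.29, 7.38 and 7.36 in Bf 140 nM, against 7.24, 7.30 and 6.998 in DMSO 0.6%, a difference of 0.16 (95% interval -0.10 to 0.42). Its probe set lay below the array medians, and its pair differences were 0.05, 0.08 and 0.36. RAD23B, a shuttle that carries ubiquitinated proteins to the complex, had 11.34, 11.55 and 11.32 in Bf 140 nM, against 11.42, 11.88 and 11.47 in DMSO 0.6%, a difference of -0.18 (-0.55 to 0.18) that was negative in all 3 pairs. Of the 21 partners 2 were negative in all 3 pairs, against 5.17% of all genes, and 2 were positive in all 3, against 11.1%. UFD1, a cofactor of the segregase VCP, differed by 0.08 (-0.15 to 0.32). For ubiquitin itself and its activation 3 of 6 listed genes were measured and 0 called. UBB, a polyubiquitin gene, differed by -0.02 (-0.49 to 0.46), UBA1, the main activating enzyme, by -0.01 (-0.82 to 0.80) and UBA6, the second one, by -0.17 (-1.75 to 1.41). UBA6, with the widest of these intervals, had 9.16, 8.56 and 7.08 in Bf 140 nM, against 9.03, 8.90 and 7.39 in DMSO 0.6%, a replicate contrast of -1.68.

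The antigen presentation and interferon list, whose genes respond to interferon as PSMB8, PSMB9, PSMB10 and PSME1 do, had 15 measured genes and 0 called, with a median of 0.06. ISG15, a ubiquitin-like protein induced by interferon, had 7.37, 7.40 and 7.14 in Bf 140 nM, against 7.20, 7.29 and 6.89 in DMSO 0.6%, a difference of 0.17 (95% interval -0.16 to 0.51) that was positive in all 3 pairs. Of the 15 genes 2 were positive in all 3 pairs, against 11.1% of all genes, and 0 were negative in all 3, against 5.17%. CIITA, the regulator of MHC class II genes, differed by -0.12 (-0.39 to 0.14) and ERAP2, a peptide-trimming aminopeptidase, by 0.10 (-0.11 to 0.30). The probe sets of ISG15, CIITA and ERAP2 lay below the array medians. The groups did not overlap in 1 of the 15 genes, against 2.38% of all genes. This was TAP2, a subunit of the peptide transporter, which differed by 0.08 and is named after its values were seen.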

How the data were processed

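Total RNA of the 6 cultures was labelled by a one-cycle protocol and hybridised to Affymetrix GeneChip arrays of the human genome. The authors took intensities from GCOS, applied VSN in R 2.5.0 (version from the submitters' processing notes) and deposited the resulting log2 values of each array. How probes were summarized, which arrays shared a normalization and the genome build are not given in the sources used here. The deposited log2 values hold all probe sets, so the study's Present-call filter was not applied, and the study's SAM, which permutes samples, was not repeated.

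Symbols came from the platform annotation (19064 probe sets with 1, 1043 with several, 2108 with none). Probe sets were tested with limma 3.58.1 in R 4.3.3 (lmFit, eBayes, Benjamini-Hochberg over 22215, adjusted p under 0.10) without a filter or block; the script was tested on simulated data. With 3 arrays per group, their number limits the precision. For replicates, the contrast was replicate 3 minus the mean of replicates 1 and 2, with treatment in the model.

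Named with values were the catalytic subunits and their counterparts, all PSMC, PSME, PSMF and PSMG genes, the 3 smallest p in each other class, the 4 highest and 4 lowest replicate contrasts, and up to 3 smallest p in each further list. The members and lists were chosen with earlier results of these data known. Further lists were partners of the proteasome, ubiquitin and its activation, antigen presentation and interferon genes, and genes induced when the proteasome is inhibited. Promoter sequences are RefSeq's for GRCh38.p14.

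Replicate numbers were checked for pairing. After subtraction of group means, the 2 arrays of replicates 1, 2 and 3 had correlations of 0.725, 0.783 and 0.880, all over 0.1. Replicate 3 stands apart in both groups, which can raise the other correlations, so these alone do not show that numbers 1 and 2 pair. Without the subtraction, each array correlated best with the array of equal number in the other group, at 0.995 to 0.998. By these values the numbers pair the samples, but no source ties a number to a common day or batch. Alternatives were a block for the replicate number, equal array medians, quantile normalization, fewer arrays, filters on dim probe sets, trend and robust eBayes, thresholds of 0.05 and 0.2, averaging a gene's probe sets, and the actin 3′ measure as a covariate.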

Additional observations from a re-analysis of the deposited data

How the results depend on the processing

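The counts of 0 called proteasome genes and 0 called probe sets held with the replicate block, equal array medians, quantile normalization, both filters on dim probe sets, trend and robust eBayes, thresholds of 0.05 and 0.2, without both replicate 3 arrays and without each array; the count of proteasome genes also held with the mean of all probe sets. With the replicate block, which narrows the intervals, the median proteasome difference stayed 0.01 and no call changed. Signs of single differences, none of them called, turned in 4 of 39 genes with quantile normalization, 5 with equal medians, 7 with the mean of probe sets, 14 without both replicate 3 arrays, and 8 to 22 when 1 array was left out. Leaving out 1 array moved the class medians between -0.16 and 0.20 for the alpha ring, -0.061 and 0.081 for the constitutive beta ring, -0.12 and 0.091 for lid and base, -0.090 and 0.17 for the activators, -0.026 and 0.11 for the immunoproteasome genes, -0.063 and 0.12 for the ATPases, -0.097 and 0.055 for the PSMD assembly chaperones, -0.14 and 0.22 for PSMF1, and -0.12 and 0.23 for PSMG1 and PSMG2. The median of all proteasome genes then lay between -0.04 and 0.08. Such a fit sets 3 arrays against 2, which no longer hold the same replicate numbers. The 25 proteasome genes called between replicates became 26 with quantile normalization (20 shared), 27 with equal medians (21 shared), which shifts all genes by 0.20 log2, 24 with the filter at the median, 26 with trend and robust eBayes, 25 with the mean of probe sets, where PSMB4 changed sign, and 20 at 0.05. Without 1 array they numbered 15 to 29. The causes were not tested. Dim probe sets, such as those of PSMB8 and PSMB9, give compressed differences.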

Other observations

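Genes that cells raise when the proteasome is inhibited were also not called. Of 11 such genes 9 were measured, and 0 passed at an adjusted p under 0.10 from limma or at an unadjusted p under 0.05, with and without the replicate block. Their median difference was 0.04 log2, against 0.01 for all genes, and 7 of 9 were positive (77.8%, against 58.1%). The pairs did not run alike, with medians of -0.06, 0.06 and 0.19 log2 and 4, 5 and 7 of 9 positive in pairs 1, 2 and 3. GADD45B, a stress-induced regulator of growth arrest, had 7.70, 7.71 and 7.73 in Bf 140 nM, against 7.63, 7.65 and 7.54 in DMSO 0.6%, a difference of 0.11 (95% interval -0.08 to 0.30). Its groups did not overlap, and it was the only gene of the 9 for which this held, against 2.38% of all genes. Its probe set lay below the array medians, where differences are compressed. It is also of the platform's x type, whose probes can match other transcripts. DDIT3, the transcription factor CHOP of the stress response, had 8.40, 8.55 and 8.64 in Bf 140 nM, against 8.50, 8.41 and 8.27 in DMSO 0.6%, a difference of 0.14 (-0.12 to 0.40) that was negative in pair 1 and positive in pairs 2 and 3. SQSTM1, the autophagy receptor p62 that binds ubiquitin chains, differed by 0.08 (-0.27 to 0.42).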
